A study of Mus musculus with 50 samples.

Results

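Nr4a1, Nr4a2, Nr4a3, Egr1, Egr2, Egr3, Cd5, Cd6, Tox and Nfatc1 are genes that T cells switch on, or keep at a level set by, signalling through the T cell receptor. These 10 genes were taken by name as rows of a table of 55011 gene symbols, and all 10 were found. Their levels were read in 50 RNA-seq libraries of sorted mouse CD4 T cells in 16 groups, each library made from 500 to 1000 double-sorted cells. The question of the study is how regulatory T (Treg) cells that arise in the thymus around birth later come to fill tissues. The 6 thymus groups are 2 kinds of Treg progenitor from male B6.Cg-Foxp3tm1Kuch/J mice, which carry a GFP reporter of Foxp3. P2 progenitors were sorted as CD4+CD8-CD25-Foxp3+ and P1 progenitors as CD4+CD8-CD25+Foxp3-, each on days 5, 12 and 49 after birth, with 3 libraries per group. The other 10 groups are Treg cells of male mice with the Foxp3tm3(HBEGF/GFP)Ayr allele, labelled week 20, whose Foxp3 gene drives GFP and the diphtheria toxin receptor. They were sorted by CD4 and GFP from visceral adipose tissue (VAT), ear skin, liver, lung and spleen, in an arm labelled DT (diphtheria toxin) and an arm labelled PBS, with 4 libraries per VAT group and 3 per other group. The series text has toxin given on 3 days at 12 weeks to littermates with and without the receptor, then 8 to 9 weeks of rest. The sample labels give strain and genotype (WT) identically in both arms, so the arms are named here by their labels, DT and PBS. The labels do not say that replicates came from separate mice, so the spread between them may be partly technical.

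When a T cell receptor binds its ligand, calcium and MAP kinase signals induce transcription within minutes to hours. The Egr genes encode zinc finger factors induced early through the MAP kinase route, and the Nr4a genes encode orphan nuclear receptors that are read, in reporter mice, as a sign of recent receptor signalling. Nfatc1 encodes a factor that calcineurin sends to the nucleus, Tox an HMG-box factor induced downstream of NFAT, and Cd5 and Cd6 related surface receptors whose levels are tuned to signal strength and which dampen it. In Treg development, strong signals from self ligands raise these genes, and NR4A factors are needed for Foxp3 induction and for stable Treg function. The Nr4a and Egr genes are also immediate early genes, which enzymatic digestion, handling and heat can induce in many cell types.

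The 3 Nr4a genes moved together across the groups, and their promoters are shown for a sequence that they share. Promoter windows of RefSeq (GRCm38.p6) run from 250 bases before the start site to 50 after it. Capitals mark each TGACG on either strand (read as CGTCA on the other), the core of the cAMP response element, bound by CREB and ATF family factors. The windows are chr15:101266596-101266895 (plus strand) for Nr4a1, chr2:57123954-57124253 (minus strand) for Nr4a2 and chr4:48045055-48045354 (plus strand) for Nr4a3.
Nr4a1: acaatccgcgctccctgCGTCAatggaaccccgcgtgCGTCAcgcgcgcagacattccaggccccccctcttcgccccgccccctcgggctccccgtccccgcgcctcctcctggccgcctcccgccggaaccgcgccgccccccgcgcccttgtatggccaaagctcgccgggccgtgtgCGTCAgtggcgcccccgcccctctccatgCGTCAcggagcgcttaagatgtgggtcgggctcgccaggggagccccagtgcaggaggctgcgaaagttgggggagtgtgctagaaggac
Nr4a2: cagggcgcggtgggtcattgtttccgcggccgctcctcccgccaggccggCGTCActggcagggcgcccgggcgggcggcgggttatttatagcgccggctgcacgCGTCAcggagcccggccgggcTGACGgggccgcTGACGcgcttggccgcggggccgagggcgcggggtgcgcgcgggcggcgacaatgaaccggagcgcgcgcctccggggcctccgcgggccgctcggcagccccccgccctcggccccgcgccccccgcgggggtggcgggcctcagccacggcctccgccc
Nr4a3: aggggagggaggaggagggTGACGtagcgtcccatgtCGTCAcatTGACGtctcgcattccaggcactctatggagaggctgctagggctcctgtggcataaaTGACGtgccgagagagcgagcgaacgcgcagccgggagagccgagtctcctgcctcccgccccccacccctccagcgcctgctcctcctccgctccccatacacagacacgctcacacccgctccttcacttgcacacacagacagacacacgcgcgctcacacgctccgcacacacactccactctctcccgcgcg
Each Nr4a window holds 4 of these cores, at -233, -213, -69 and -40 from the start site in Nr4a1, at -200, -144, -123 and -111 in Nr4a2 and at -231, -213, -205 and -147 in Nr4a3. Of 32851 promoter windows of the same length, 20.8% hold at least 1 core and 76 (0.231%) hold at least 4. The full palindrome TGACGTCA, found in 1.79% of all windows, is in none of the 3. An EGR site (GCGNGGGCG, in 5.55% of windows) occurs once in Nr4a1 and once in Nr4a2. The windows of Egr2 and Cd5 used here hold no TGACG on either strand. Among genes whose group means were most like those of Nr4a genes (named below), windows of Plk2 hold 3 cores, of Rgs2 2 and of Ankrd50 0. Windows of Zfp426, like Egr2 in its means, and Oxa1l, like Cd5, hold 2 and 3. Other motifs were searched in the same windows. A match of letters is a description and shows no binding.

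The genes lie at separate places in the genome, except for Cd5 and Cd6, which neighbour each other. On GRCm38 (GENCODE M21), Nr4a1 spans chr15:101254269-101274795 on the plus strand, Nr4a2 chr2:57106830-57124003 on the minus strand and Nr4a3 chr4:48045153-48086447 on the plus strand. Egr1 (plus strand) and Nfatc1 (minus strand) are on chromosome 18, Egr2 spans chr10:67535475-67542188 and Egr3 chr14:70077203-70082614, both on the plus strand. Cd5 (chr19:10717116-10739002) and Cd6 (chr19:10789341-10830058) are 50338 bases apart on the minus strand. Tox spans chr4:6686353-6991557 on the minus strand. An antisense gene overlaps Tox (Gm11802) and another overlaps Nfatc1 (AC123818.1). Whether counting used strand is not given in the sources used here, so both counts may include reads from the antisense gene.

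Levels are CPM, counts scaled to the size of each library with TMM factors over all 50 libraries. Depth ran from 2521078 to 6981037 counts per library. Divided by exon length, the median group mean was 376 CPM per kb for Nr4a1, 180 for Cd5, 154 for Cd6, 41.4 for Egr1, 33.1 for Nr4a3, 30.8 for Tox, 29.5 for Nfatc1, 13.5 for Egr2, 8.82 for Nr4a2 and 1.28 for Egr3. Nr4a1 was thus the most abundant of the 10 per length and Egr3 the least. T cell markers were high in every library (12 genes, summed 4605 to 9156 CPM). Foxp3 followed the sorts, at 282, 769 and 377 CPM in P2 cells of day 5, 12 and 49 against 11.2, 8.01 and 13.9 CPM in P1 cells, and at 254 to 405 CPM in the peripheral groups. Libraries that stood apart were the 3 of day 12 P1 and replicates 2 and 3 of day 49 P2, in which genes under 1 CPM took 0.895% to 2.17% of counts against 0.261% to 0.399% in the other thymus libraries. Replicate 7 of VAT DT also stood apart, with fibroblast markers summing to 577 CPM against 2.42 to 7.43 CPM in the other VAT DT libraries. Spleen PBS replicate 1 differed from the rest of its group. Its Foxp3 was at 135 CPM against 299.7 and 328 CPM in replicates 2 and 3, and its Il2ra at 945 CPM against 541 and 463 CPM. It enters every comparison with spleen PBS. The calls lost without it were those of Tox in lung PBS and of Cd6, Egr2 and Egr3 in liver PBS. Values without the day 49 P2 libraries or VAT DT replicate 7 stand beside the calls that they change. The 3 day 12 P1 libraries are their whole group and could not be left out together. The share of counts in genes under 1 CPM, used below as a covariate, therefore runs largely along that group. Outside it, only replicates 2 and 3 of day 49 P2 were high. Calls of day 12 P1 or day 49 P2 kept or lost under this covariate do not separate group from library.

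Across the 16 groups the ratio of the highest to the lowest group mean separated the families. It was 29.4 for Nr4a1, 31.6 for Nr4a3 and 241 for Nr4a2, all with spleen PBS lowest, and 8.98, 12.6 and 20.4 for Egr1, Egr2 and Egr3. It was 2.34 for Cd5, 1.76 for Cd6, 2.09 for Tox and 2.16 for Nfatc1, which therefore varied least. The ratios of Nr4a2 and Egr3 have lowest means of 1.04 CPM (spleen PBS) and 0.900 CPM (liver PBS) and so rest on few counts. For Nr4a1 the order of the means ran from ear skin PBS through liver DT, ear skin DT, liver PBS, VAT PBS, VAT DT and lung DT, then day 12 P1, lung PBS, day 5 P1, day 49 P1, day 12 P2, day 49 P2 and day 5 P2, to spleen DT and spleen PBS. Of the 15 neighbouring pairs in that order, 2 had libraries that did not overlap. The number was 4 for Nr4a3, 2 for Nr4a2 and Cd5, 1 for Egr2, Cd6 and Nfatc1 and 0 for Egr1, Egr3 and Tox. By group mean, Nr4a2 and Nr4a3 were thus higher in every non-lymphoid group than in thymus and spleen. The same held for Nr4a1 except in lung PBS (1282 CPM), which was below day 12 P1 (1360 CPM). Egr2 had its highest mean in the thymus (day 12 P2) and Egr1 in VAT, each overlapping the next group in its order.

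**Figure D1:**
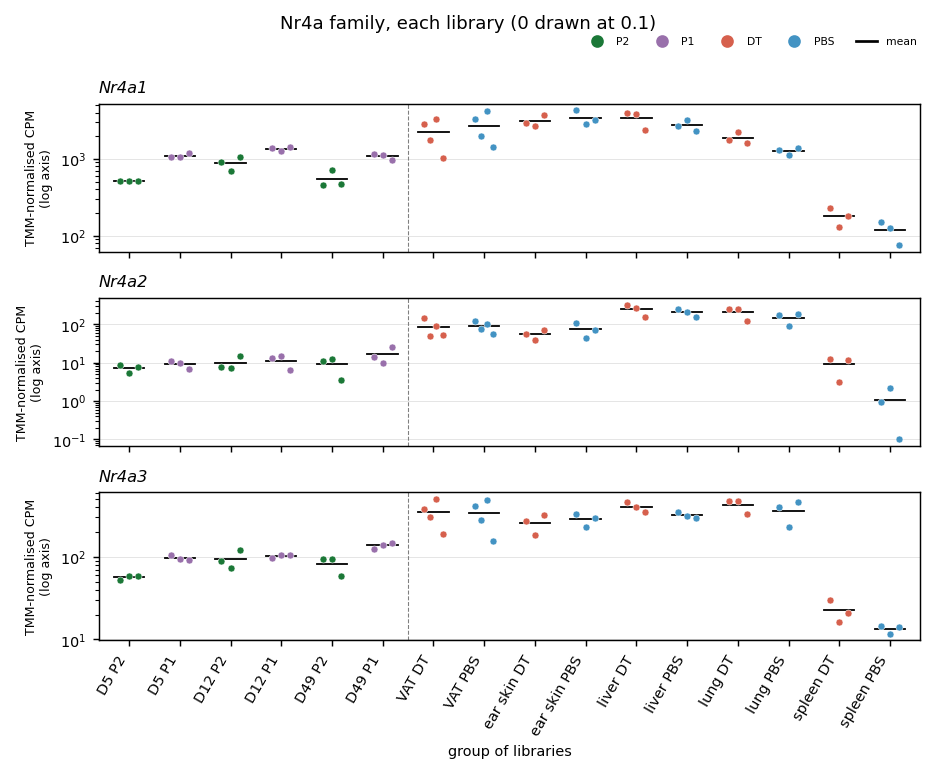
Levels of Nr4a1, Nr4a2 and Nr4a3 in each library (points, TMM-normalised CPM, log axis, 0 drawn at 0.1) with the group mean (black line), by group. The spleen libraries are lowest for Nr4a1 and Nr4a3, and the VAT, ear skin, liver and lung libraries are above spleen for all 3 genes.

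All 3 Nr4a genes were higher in Treg cells of every non-lymphoid tissue than in spleen, in both arms. Nr4a1 (Nur77) was at 4273, 2840 and 3248 CPM in ear skin PBS, against 149.6, 128 and 75.0 CPM in spleen PBS. It was at 2688, 3255 and 2329 CPM in liver PBS and 1306, 1138 and 1401 CPM in lung PBS, and at 3258, 2000, 4161 and 1429 CPM in VAT PBS. The lowest tissue library thus lay far above the highest spleen library, and no tissue overlapped spleen. Nr4a1 log2 fold changes over spleen PBS were 4.56 ± 0.36 (SE) in VAT, 5.01 ± 0.37 in ear skin, 4.60 ± 0.37 in liver and 3.50 ± 0.35 in lung (edgeR quasi-likelihood test, adjusted p 2.17e-11, 4.69e-12, 3.85e-11 and 5.77e-09). In the DT arm they were 3.67 ± 0.34, 4.23 ± 0.36, 4.27 ± 0.36 and 3.40 ± 0.35 in the same order, over spleen DT at 230.2, 129.8 and 179 CPM.

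Nr4a3 (Nor1) showed the same separation from a lower level. It was at 412, 283, 491 and 156 CPM in VAT PBS, 330, 231 and 292 CPM in ear skin PBS, 347, 311 and 292 CPM in liver PBS and 403, 230.2 and 459 CPM in lung PBS. Spleen PBS was at 14.7, 11.7 and 14.0 CPM, below every tissue library. Its log2 fold changes ran from 4.52 ± 0.36 in ear skin to 4.80 ± 0.37 in lung in the PBS arm, and from 3.65 ± 0.35 in ear skin to 4.27 ± 0.35 in lung in the DT arm. Nr4a2 (Nurr1) was at 122, 75.5, 103 and 55.0 CPM in VAT PBS, 107, 44.1 and 71.0 CPM in ear skin PBS, 255, 206 and 156 CPM in liver PBS and 175, 90.4 and 182 CPM in lung PBS. In spleen PBS it was near the limit of detection, at 0.970, 2.15 and 0 CPM (6, 11 and 0 counts), and in spleen DT it was at 12.5, 3.19 and 12.0 CPM. Its fitted log2 fold changes of 6.18 ± 0.62 to 7.57 ± 0.62 in the PBS arm and 2.7 ± 0.48 to 4.80 ± 0.50 in the DT arm therefore rest on few spleen counts, and the sizes are uncertain. Within the family, Nr4a1 was highest in ear skin, liver and VAT, and Nr4a2 in liver and lung.

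The 24 Nr4a calls (3 genes, 4 tissues, 2 arms) were kept in all of their own alternatives, 294 values in all, including those without each library in turn, with a largest adjusted p of 0.00622 and log2 fold changes of 2.25 to 8.50. Of the 10 genes, 4 were called in VAT, 6 in ear skin, 7 in liver and 5 in lung against spleen in the PBS arm, where 14.9%, 23.7%, 17% and 15.9% of 17731 genes were called. In the DT arm the counts were 4, 7, 5 and 6, with 8.85%, 22.1%, 13.3% and 14.6% of all genes called. Without 1 library the count of 7 in liver PBS fell to 4 (spleen PBS replicate 1, liver PBS replicate 2 or liver PBS replicate 3), and that of 7 in ear skin DT fell to 4 (spleen DT replicate 4, ear skin DT replicate 4 or ear skin DT replicate 5). The Nr4a genes accounted for 3 calls in each comparison.

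**Figure D2:**
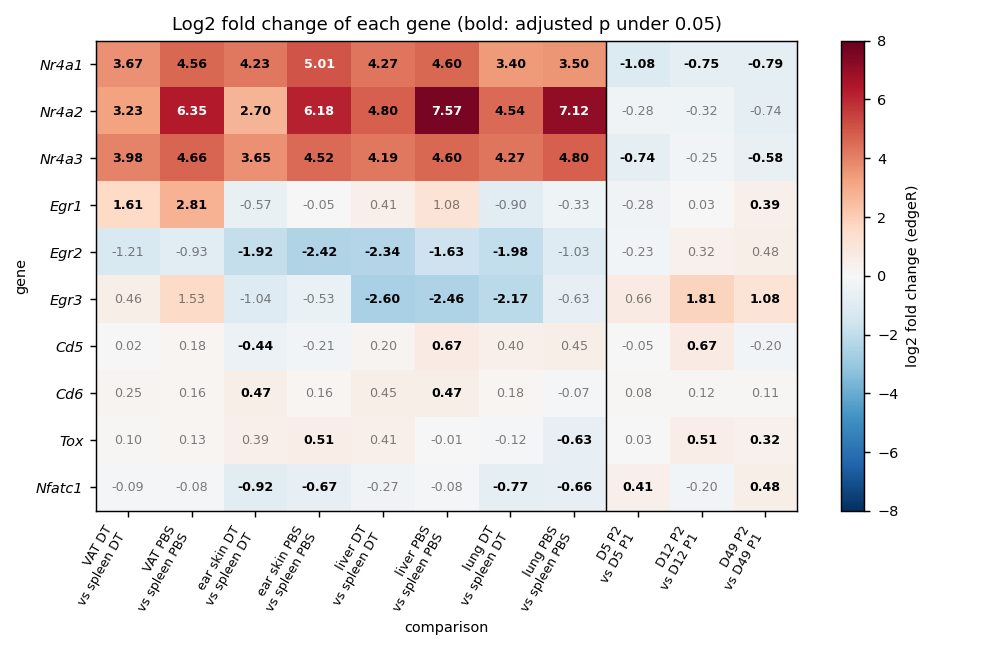
Fitted log2 fold changes (edgeR, colour and printed value) of the 10 genes (rows) in tissue against spleen Treg cells of each arm and in P2 against P1 thymic progenitors (columns), with adjusted p under 0.05 in bold. The Nr4a rows are 2.7 to 7.57 in all 8 tissue comparisons and -1.08 to -0.25 in the 3 thymus ones.

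Genes known as a response to tissue digestion moved with the Nr4a genes in the same libraries. Of 26 such genes (Fos, Jun, Dusp1, Junb and others, none of them among the 10), 19 rose and 3 fell in VAT, 16 rose and 2 fell in ear skin, 19 rose and 2 fell in liver and 16 rose and 0 fell in lung, in the PBS arm. Their summed level was 13634 to 32687 CPM in VAT PBS, 10844 to 13124 CPM in ear skin PBS, 12952 to 15477 CPM in liver PBS and 7401 to 10879 CPM in lung PBS, against 2586 to 3335 CPM in spleen PBS. Fos, a subunit of AP-1, averaged 2569 CPM in VAT, 447 CPM in ear skin, 216 CPM in liver and 119 CPM in lung, against 5.76 CPM in spleen PBS. Dusp1, a phosphatase of MAP kinases, averaged 5223, 2347, 1968 and 887 CPM in the same tissues against 112 CPM in spleen PBS. For both, VAT was highest and lung lowest of the 4, while the Nr4a1 mean was highest in ear skin.

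Heat shock genes divided the tissues differently. Of 15 such genes, 11 rose in liver, 5 rose and 1 fell in ear skin, 4 rose in VAT and 1 rose in lung (PBS arm). Of all genes, 17%, 23.7%, 14.9% and 15.9% were called in these tissues in that order. Hspa1a, an inducible HSP70, averaged 61.4 CPM in VAT, 656 CPM in ear skin, 554 CPM in liver and 4.64 CPM in lung, against 0.196 CPM in spleen PBS. In lung PBS, Hspa1a was at 0.904 to 9.97 CPM and Dnajb1, an HSP40, was not called (log2 fold change 0.18 ± 0.38, adjusted p = 0.820). The 3 Nr4a genes were called higher in these libraries, in which 16 of the 26 digestion genes also rose and 0 fell. With the mean log level of the heat shock genes as a covariate, Nr4a1 had log2 fold changes of 4.75 in VAT, 5.36 in ear skin, 5.07 in liver and 3.57 in lung (PBS arm). That covariate (mean log2 CPM) was 5.31 to 6.12 in the spleen libraries and 6.42 or more in every VAT, ear skin and liver library. It thus runs largely along tissue, and it does not measure the immediate early genes. Calls kept or lost under it, here and below, do not separate tissue from handling. Each tissue was digested by its own protocol, so tissue of origin and digestion cannot be told apart for any gene that differs from spleen.

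In the 6 thymus groups Nr4a1 averaged 510.5 to 1360.0 CPM, above both spleen groups. Fos averaged 6.37 to 18.7 CPM there, against 6.09 CPM in spleen DT and 5.76 CPM in spleen PBS, and Jun averaged 0.447 to 8.58 CPM, against 20.8 and 16.7 CPM in spleen DT and PBS. Dusp1 averaged 78.2 to 244 CPM in thymus, on both sides of its 131 CPM in spleen DT and 112 CPM in spleen PBS. Hspa1a was at 0 in all libraries of day 5 and day 12. The thymus and peripheral libraries were fitted apart and come from different strains and ages, so these levels are set side by side with no test.

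**Figure D3:**
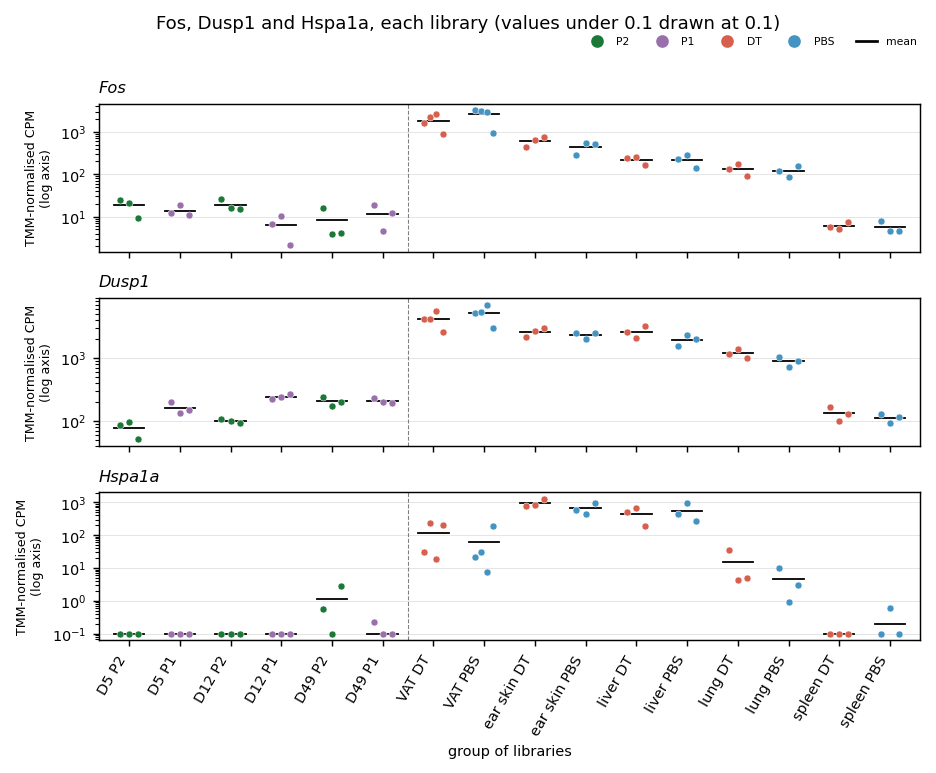
Levels of Fos, Dusp1 and Hspa1a in each library (points, TMM-normalised CPM, log axis, values under 0.1 drawn at 0.1) with the group mean (black line). Fos and Dusp1 are highest in VAT, Hspa1a is highest in ear skin and liver, and Fos and Hspa1a are low in thymus and spleen.

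The Egr genes did not follow the Nr4a genes. Egr1 was called higher in VAT alone among the tissues, and Egr2 was lower than in spleen in ear skin and liver of both arms and in lung of the DT arm. Egr1 was at 468, 634, 482 and 143 CPM in VAT PBS, against 56.3, 71.8 and 59.1 CPM in spleen PBS. All 4 VAT libraries lay above spleen, and replicate 4 was the lowest of them, as it was for Nr4a1 and Fos (924 CPM against 2960 to 3204 CPM in the other 3). The log2 fold change was 2.81 ± 0.45 (adjusted p = 2.03e-05). In ear skin PBS (34.1, 70.4 and 60.9 CPM), liver PBS (85.0, 199.99 and 101 CPM) and lung PBS (41.1, 42.8 and 60.4 CPM), Egr1 was not called, with log2 fold changes of -0.05 ± 0.45, 1.08 ± 0.45 and -0.33 ± 0.45. Egr1 was therefore near the spleen level in lung and ear skin cells in which Nr4a1 was many times higher.

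In the DT arm Egr1 was at 338, 341, 742 and 166 CPM in VAT, against 161, 96.4 and 144 CPM in spleen. The lowest VAT library lay just above the highest spleen library, and the log2 fold change was 1.61 ± 0.42 (adjusted p = 0.0117). The call was lost without VAT DT replicate 7 (1.1, adjusted p = 0.0969) and without spleen DT replicate 5 (1.42, adjusted p = 0.0898). Replicate 7 held the highest Egr1 level and also the marker sums of fibroblasts (577 CPM) and of myeloid cells (121 CPM against 1.54 to 17.9 CPM in the other 3), both cell types that can express Egr1, and their part in the result was not tested. In the PBS arm the same sums in VAT were 0.865 to 9.30 CPM for fibroblasts and 4.34 to 12.2 CPM for myeloid cells. Other sums were higher in VAT PBS than in spleen PBS. Mesothelial markers (5 genes, Lrrn4 highest) summed to 118 to 183 CPM against 8.25 to 8.81 CPM. Epithelial markers (8 genes, Epcam highest) summed to 47.4 to 117 CPM against 32.5 to 44.5 CPM. The part of these cells in the Egr1 result was not tested. In bulk libraries fewer cells of a type and less RNA per cell cannot be told apart.

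Egr2, a factor that restrains activated T cells, was at 2.33, 17.0 and 11.7 CPM in ear skin PBS, against 90.1, 51.7 and 41.6 CPM in spleen PBS, with no overlap (log2 fold change -2.42 ± 0.61, adjusted p = 0.0032). In the DT arm it was at 19.7, 17.2 and 32.2 CPM in ear skin, 11.8, 23.5 and 19.9 CPM in liver and 29.2, 25.7 and 15.5 CPM in lung, against 120, 69.5 and 94.6 CPM in spleen. The fold changes there were -1.92 ± 0.58, -2.34 ± 0.58 and -1.98 ± 0.57 (adjusted p 0.0153, 0.00546 and 0.0157), and every tissue library was below every spleen library. The ear skin DT and lung DT calls were each lost without 3 of the 6 libraries in turn (adjusted p 0.0506 to 0.0911), spleen DT replicate 4 being one for both, and the ear skin and liver DT calls were lost with the heat shock covariate, under which the changes were -2.32 and -2.84 (adjusted p 0.0564 and 0.0959). In liver PBS the fall of 1.63 ± 0.57 (adjusted p = 0.0461) was lost without 4 of 6 libraries in turn (spleen PBS replicates 1 and 2, liver PBS replicates 2 and 3) and in DESeq2 (adjusted p = 0.0592). In VAT, Egr2 was at 42.5, 19.5, 20.7 and 41.3 CPM in the PBS arm, which touched the spleen range, and it was not called (-0.93 ± 0.51).

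Egr3, a close relative of Egr2, was low throughout, at 1.34, 1.36 and 0 CPM in liver PBS against 5.66, 5.48 and 5.20 CPM in spleen PBS. It was called lower in liver PBS (-2.46 ± 0.84, adjusted p = 0.0399), liver DT (-2.60 ± 0.79, adjusted p = 0.023) and lung DT (-2.17 ± 0.76, adjusted p = 0.0494). The calls of liver PBS and lung DT were lost without any 1 of their 6 libraries (adjusted p 0.0544 to 0.167), and that of liver DT without 4 of 6 (spleen DT replicates 4 and 6, liver DT replicates 4 and 5). All 3 were lost with the heat shock covariate, at -0.24, -0.59 and -1.54 (adjusted p 0.936, 0.832 and 0.211).

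**Figure D4:**
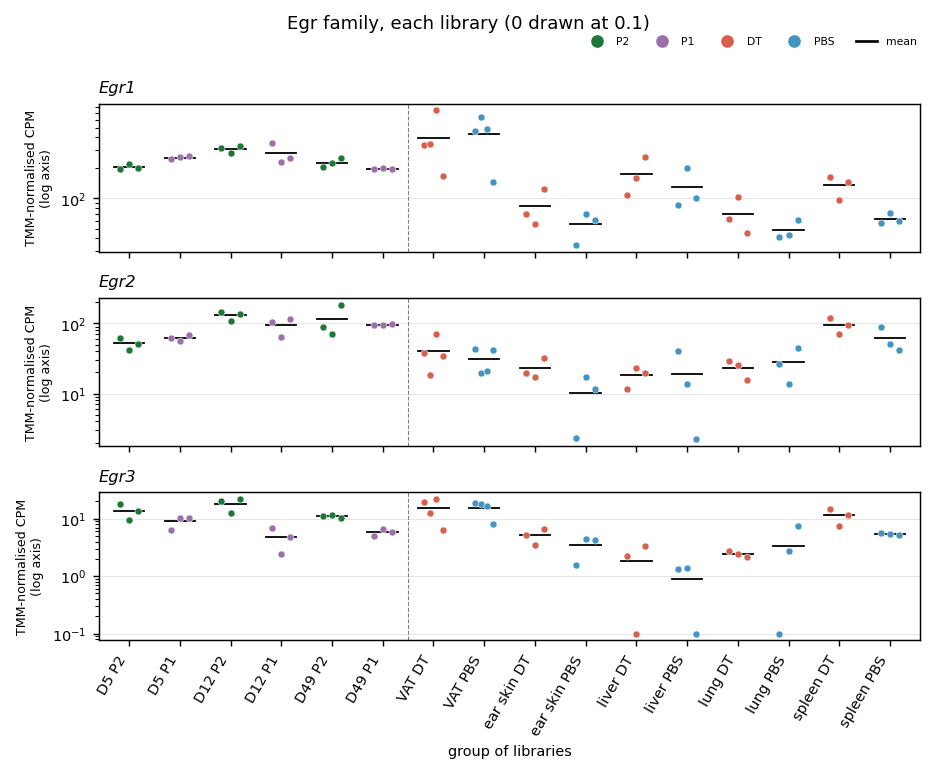
Levels of Egr1, Egr2 and Egr3 in each library (points, TMM-normalised CPM, log axis, 0 drawn at 0.1) with the group mean (black line). Egr1 is highest in VAT, group means of Egr2 are higher in thymus and spleen than in the other 4 tissues, and Egr3 reaches at most 22.3 CPM.

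Cd5, Cd6, Tox and Nfatc1 differed little between tissues and spleen, and no log2 fold change of theirs in the 8 tissue comparisons exceeded 0.92 in size. Nfatc1 was the most regular, at 137, 96.1 and 178 CPM in ear skin PBS and 159, 118 and 159 CPM in lung PBS, against 169, 249.8 and 289 CPM in spleen PBS. In the DT arm it was at 158, 105 and 172 CPM in ear skin and 183, 161 and 169 CPM in lung, against 310, 269 and 310 CPM in spleen. The DT groups did not overlap, and ear skin and lung were lower by log2 fold changes of -0.92 ± 0.21 and -0.77 ± 0.21 (adjusted p 0.00139 and 0.00891), calls that were kept without each library in turn. In the PBS arm the changes were -0.67 ± 0.21 and -0.66 ± 0.21 (adjusted p 0.0156 and 0.0231). Both PBS calls were lost without spleen PBS replicate 3 (adjusted p 0.0933 and 0.147). They were also lost without ear skin PBS replicate 2 and lung PBS replicate 2 in their own comparison, and the lung call without spleen PBS replicate 2. Nfatc1 was not called in VAT or liver, with changes of -0.27 to -0.08.

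Cd5 was at 1193, 1021 and 1008 CPM in liver PBS, against 542, 758 and 771 CPM in spleen PBS, with no overlap (log2 fold change 0.67 ± 0.16, adjusted p = 0.00306). The liver call was kept without each library in turn and was lost with the heat shock covariate (0.41, adjusted p = 0.367). It was also lost with the compared groups alone, and 9 of its 12 alternatives kept it. In liver DT, Cd5 was at 1039, 1092 and 765 CPM against 922, 834 and 820 CPM in spleen DT, and it was not called (0.20 ± 0.16). In ear skin DT, Cd5 was lower (-0.44 ± 0.16, adjusted p = 0.0433), a call lost with RLE scaling (-0.29, adjusted p = 0.155), in DESeq2 (-0.29, adjusted p = 0.142) and without 5 of 6 libraries in turn (adjusted p 0.0622 to 0.106). RLE moved the median of all genes in that comparison to 0.28 from the 0.13 of TMM, a larger shift than in the other tissues. Cd6 was higher in liver PBS (0.47 ± 0.16, adjusted p = 0.0336) and in ear skin DT (0.47 ± 0.16, adjusted p = 0.0289). Those Cd6 calls were lost without 5 of 6 and all 6 libraries in turn (adjusted p 0.0521 to 0.243).

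Tox was at 174, 134 and 161 CPM in lung PBS, against 374, 182 and 202 CPM in spleen PBS (-0.63 ± 0.18, adjusted p = 0.0137). Without spleen PBS replicate 1, the highest of the group, the change was -0.29 (adjusted p = 0.32), and without lung PBS replicate 2 it was -0.53 (adjusted p = 0.0891). In ear skin PBS, Tox was at 361, 277 and 341 CPM, which overlapped spleen, and its call (0.51 ± 0.18, adjusted p = 0.0349) was lost without 4 of 6 libraries in turn. Tox was not called in any tissue of the DT arm, with changes of -0.12 to 0.41.

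**Figure D5:**
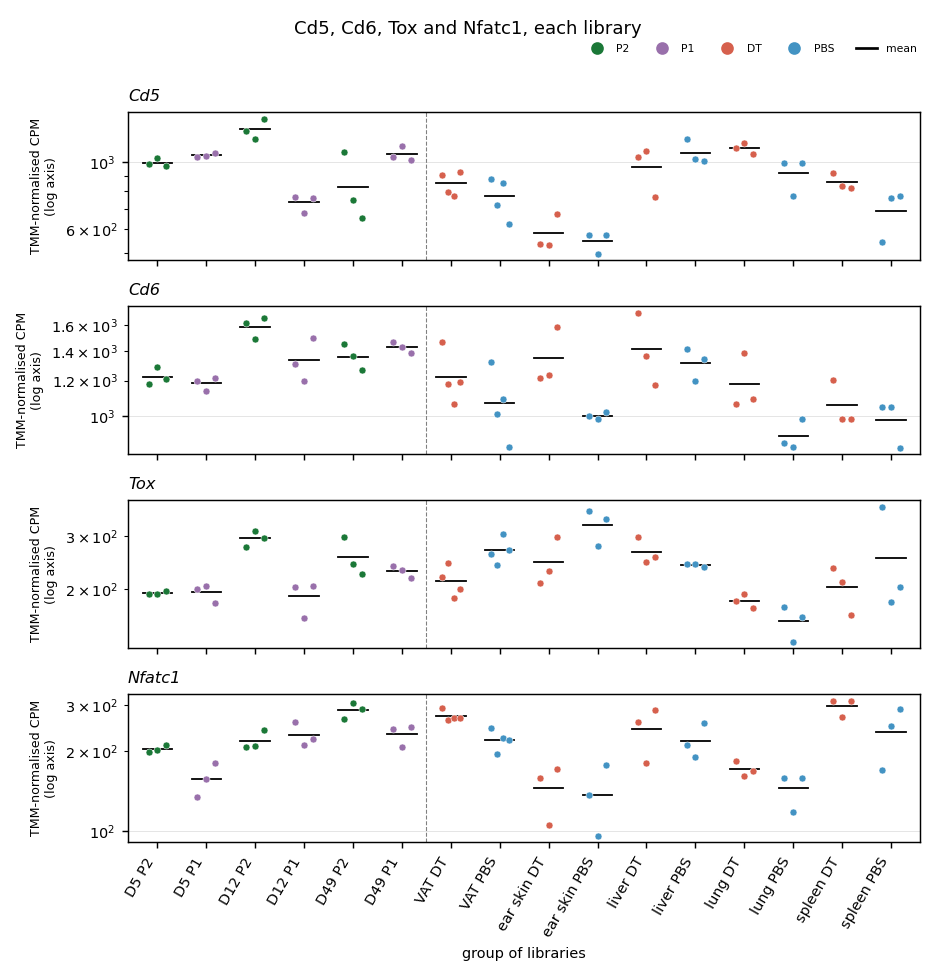
Levels of Cd5, Cd6, Tox and Nfatc1 in each library (points, TMM-normalised CPM, log axis) with the group mean (black line). The highest and lowest group means of each gene are 1.76 to 2.34 times apart, and Nfatc1 is lower in ear skin and lung than in spleen.

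VAT and ear skin, both digested and both high in Nr4a, differed in Egr1. It was at 468, 634, 482 and 143 CPM in VAT PBS against 34.1, 70.4 and 60.9 CPM in ear skin PBS (log2 fold change 2.86 ± 0.46, adjusted p = 3.75e-05), and at 338, 341, 742 and 166 CPM in VAT DT against 70.5, 55.9 and 124 CPM in ear skin DT (2.18 ± 0.44, adjusted p = 0.000888). The groups did not overlap in either arm, and both calls were kept without each library in turn and with the heat shock covariate. The mesothelial marker sum was also higher in VAT, at 118 to 183 CPM against 14.8 to 32.8 CPM in ear skin (PBS arm). In the DT arm it was 30.6 to 64.4 CPM against 2.68 to 14.2 CPM. Its part in the Egr1 difference was not tested. The Nr4a genes overlapped between VAT and ear skin and were not called, with log2 fold changes of -0.56 to 0.53. Nfatc1 was higher in VAT (0.60 ± 0.19 in the PBS arm and 0.83 ± 0.20 in the DT arm, adjusted p 0.0362 and 0.00439), as were Egr3 in the PBS arm (2.06 ± 0.71, adjusted p = 0.0491) and Cd5 in the DT arm (0.46 ± 0.15, adjusted p = 0.0387). The Nfatc1 call was lost without 5 of 7 libraries in turn in the PBS arm (adjusted p 0.0533 to 0.221) and 1 of 7 in the DT arm (0.0545). The Egr3 call was lost without 6 of 7 (adjusted p 0.0786 to 0.162) and the Cd5 call without 4 of 7 (0.0962 to 0.147). In each arm 3 of 10 genes were called, where 13.8% (PBS) and 13% (DT) of all genes were. Of the digestion genes, 13 rose and 2 fell in the PBS arm and 7 rose and 2 fell in the DT arm. Without ear skin PBS replicate 1 or 2 or VAT PBS replicate 1 or 3, or without ear skin DT replicate 5, the count fell to 1, Egr1.

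In the thymus Nr4a1 was lower in P2 than in P1 progenitors at each age. It was at 509, 509.9 and 512 CPM in P2 and 1069, 1064 and 1181 CPM in P1 cells at day 5, and at 903, 702 and 1060 CPM in P2 and 1396, 1260 and 1424 CPM in P1 cells at day 12. At day 49 it was at 463, 714 and 465 CPM in P2 and 1148, 1134 and 960 CPM in P1 cells. The groups did not overlap at any age, and the log2 fold changes were -1.08 ± 0.16, -0.75 ± 0.16 and -0.79 ± 0.16 (adjusted p 5.89e-05, 0.000906 and 0.000974). Each call was kept without each library in turn and with the share of counts in genes under 1 CPM as a covariate (adjusted p 1.5e-05, 0.0244 and 0.00302). Nr4a3 was lower at day 5 (52.2, 58.2 and 59.2 CPM in P2 against 104, 93.6 and 92.5 CPM in P1, -0.74 ± 0.18, adjusted p = 0.00579) and at day 49 (-0.58 ± 0.18, adjusted p = 0.0179). At day 12 it overlapped and was not called (-0.25 ± 0.17). The day 49 call was lost without P1 replicate 2 or 3 or P2 replicate 3 (adjusted p 0.0515 to 0.0677) and without both P2 libraries that stood apart (-0.54, adjusted p = 0.0992). Nr4a2 averaged 7.29, 9.98 and 8.98 CPM in P2 and 9.11, 11.3 and 16.5 CPM in P1 cells at the 3 ages, overlapped and was not called.

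Egr3 went the other way and was higher in P2 than in P1 at day 12 (20.6, 12.4 and 22.1 CPM against 7.03, 2.46 and 4.85 CPM, 1.81 ± 0.35, adjusted p = 0.00044) and at day 49 (11.2, 11.6 and 10.3 CPM against 5.04, 6.60 and 5.90 CPM, 1.08 ± 0.35, adjusted p = 0.027). The day 12 call was kept without each library in turn, and the day 49 call was lost without any 1 P1 library or P2 replicate 2 (adjusted p 0.0558 to 0.0971). Egr1 and Egr2 were not called at day 5 or day 12, with changes of -0.28 to 0.32, and Egr1 was called at day 49 (0.39 ± 0.13, adjusted p = 0.0348, lost without 5 of 6 libraries in turn). Without both day 49 P2 libraries that stood apart the day 49 change of Egr1 was 0.06 (adjusted p = 0.881) and that of Egr3 0.95 (adjusted p = 0.245). In P2 progenitors Nr4a1 and Egr3 thus differed from P1 in opposite directions at days 12 and 49.

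Cd5 was at 1273, 1195 and 1390 CPM in P2 and 769, 678 and 763 CPM in P1 cells at day 12 (0.67 ± 0.10, adjusted p = 3.43e-05), and Tox at 276, 312 and 295 CPM in P2 and 203, 161 and 204 CPM in P1 cells (0.51 ± 0.10, adjusted p = 0.000567). Neither gene overlapped, and both calls were kept in all 12 alternatives, with log2 fold changes of at least 0.47 for Cd5 and 0.41 for Tox. All 3 day 12 P1 libraries stood apart, which leaving out 1 library cannot address. Their T cell marker sum was 4605 to 5567 CPM against 7558 to 7844 CPM in day 12 P2, and its part was not tested. The same P1 libraries enter the day 12 calls of Nr4a1 and Egr3. At day 5 Cd5 averaged 995 and 1054 CPM in P2 and P1 cells and Tox 194 and 195 CPM, and neither was called. Nfatc1 was higher in P2 at day 5 (199, 203 and 211 CPM against 135, 158 and 180.4 CPM, 0.41 ± 0.13, adjusted p = 0.031, lost without 5 of 6 libraries in turn) and at day 49 (264, 305 and 289 CPM against 243, 209 and 247 CPM, 0.48 ± 0.13, adjusted p = 0.0079). The day 49 call was lost without P1 replicate 2 (adjusted p = 0.0577), without both P2 libraries that stood apart (0.20, adjusted p = 0.449) and with the share of counts in genes under 1 CPM as a covariate (0.30, adjusted p = 0.241). Tox at day 49 was called by a small margin (0.32 ± 0.10, adjusted p = 0.0228) with overlapping libraries, and was lost without 5 of 6 libraries in turn.

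P2 against P1, 3 of 10 genes were called at day 5, 4 at day 12 and 6 at day 49, where 15.2%, 41.4% and 29.5% of 14696 genes were. The count at day 12 is therefore close to the share of all genes. At day 49 replicates 2 and 3 of P2 stood apart, and without both of them 2 genes were called. Without 1 library the day 49 count ran from 1 to 7, and it fell to 3 without P1 replicate 1 or P2 replicate 2, to 1 without P1 replicate 2 and to 2 without P1 replicate 3. Heat shock genes were also lower in P2 (7, 9 and 6 of 12 fell at the 3 ages, and 0, 1 and 0 rose). Hspd1, a mitochondrial chaperone, averaged 120.0, 97.0 and 83.9 CPM in P2 and 305, 247 and 249.6 CPM in P1 cells. Of the digestion genes (19 tested), 5 rose and 1 fell at day 5, 8 rose and 2 fell at day 12 and 8 rose and 0 fell at day 49, with median log2 fold changes of 0.44, 0.34 and 0.43. Dusp1 was among those that fell, at day 5 (78.2 CPM in P2 against 161 CPM in P1) and day 12 (101 CPM in P2 against 244 CPM in P1).

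With age, Egr2, Nr4a1 and Tox rose in P2 progenitors between day 5 and day 12. Egr2 was at 62.8, 41.2 and 51.4 CPM at day 5, 144, 108 and 137 CPM at day 12 and 87.9, 71.7 and 186 CPM at day 49, and rose to day 12 by 1.28 ± 0.27 (adjusted p = 0.00605). Tox was at 192, 193 and 196 CPM at day 5, 276, 312 and 295 CPM at day 12 and 297, 242 and 225 CPM at day 49, and rose to day 12 by 0.56 ± 0.10 (adjusted p = 0.00156). Nr4a1, with the levels given above, rose to day 12 by 0.76 ± 0.16 (adjusted p = 0.00519). None of the 3 overlapped between days 5 and 12, and the calls were kept without each library in turn. Nr4a3 (0.70 ± 0.18), Egr1 (0.56 ± 0.13) and Cd6 (0.33 ± 0.08) also rose (adjusted p 0.0221, 0.0142 and 0.018), but each of these calls was lost without 3 or 4 of the 6 libraries in turn (adjusted p 0.0578 to 0.187). In all, 6 of 10 genes rose and 0 fell, where 5.16% of all genes were called and 1.81% were called higher. Without day 5 replicate 1, day 5 replicate 3 or day 12 replicate 3 the count was 3.

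From day 12 to day 49 in P2 cells, Nr4a1 (-0.51 ± 0.16, adjusted p = 0.0366) and Cd5 (-0.48 ± 0.10, adjusted p = 0.00649) fell and Nfatc1 rose (0.57 ± 0.13, adjusted p = 0.00827), 3 of 10 genes where 15% of all genes were called. Cd5 was at 987, 1030.0 and 968 CPM at day 5, 1273, 1195 and 1390 CPM at day 12 and 1081, 749.7 and 651 CPM at day 49, with replicates 2 and 3, the libraries that stood apart, lowest. Without both, the Cd5 change was -0.24 (adjusted p = 0.199) and the Nfatc1 change 0.28 (adjusted p = 0.411). The myeloid marker sum was 28.9, 96.3 and 122 CPM at day 49 against 5.37 to 8.36 CPM at day 12, and the T cell sum was 5627 to 7471 CPM at day 49 against 7558 to 7844 CPM at day 12. Their part in these changes was not tested. The Nr4a1 libraries of the 2 ages overlapped, and the call was lost without day 12 replicate 1 or 3 or day 49 replicate 1 or 3 (adjusted p 0.0541 to 0.143). Between day 5 and day 49 in P2 cells, 5 genes rose (Egr2 1.32 ± 0.27, Nr4a3 0.65 ± 0.18, Nfatc1 0.63 ± 0.13, Tox 0.52 ± 0.10 and Cd6 0.28 ± 0.08) where 25.8% of all genes were called and 14.7% were called higher. Without both libraries that stood apart 3 genes were called, and without day 5 replicate 1 or day 49 replicate 2 alone also 3, against 8 without day 49 replicate 1. The Egr2 change was 0.70 without day 49 replicate 3, still called, and 0.82 (adjusted p = 0.151) with the share of counts in genes under 1 CPM as a covariate. Without both libraries the Nfatc1 change was 0.35 (adjusted p = 0.145) and the Cd6 change 0.22 (adjusted p = 0.145).

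In P1 progenitors Nfatc1 was at 135, 158 and 180.4 CPM at day 5, 259, 212 and 222 CPM at day 12 and 243, 209 and 247 CPM at day 49. The later ages lay above day 5 (0.67 ± 0.13 at day 12 and 0.56 ± 0.13 at day 49, adjusted p 0.0019 and 0.00532), and both calls were kept without each library in turn. Cd5 was at 1039, 1051 and 1071 CPM at day 5, 769, 678 and 763 CPM at day 12 and 1038, 1128 and 1019 CPM at day 49, so that the day 12 libraries were lowest. The fall of 0.39 ± 0.10 at day 12 (adjusted p = 0.0136) and the rise of 0.40 ± 0.10 after it (adjusted p = 0.00982) both rest on the day 12 libraries, which had high shares of counts in genes under 1 CPM. With that share as a covariate the changes were -0.18 and 0.19 (adjusted p 0.307 and 0.284). All day 12 P1 libraries were high in that share, so these values do not separate age from library. The T cell marker sum was 4605 to 5567 CPM in these day 12 libraries against 5839 to 6169 CPM at day 5, and the part of this in the Cd5 change was not tested. Egr1 was at 243, 253 and 263 CPM at day 5, 352, 229.9 and 251 CPM at day 12 and 194, 202 and 195 CPM at day 49, and was lower at day 49 than at day 12 (-0.62 ± 0.13, adjusted p = 0.0032), a call lost with the same covariate (-0.49, adjusted p = 0.0721). Of the 10 genes, 3 were called between day 5 and day 12, 3 between day 12 and day 49 and 2 between day 5 and day 49, where 18.3%, 23.7% and 10.6% of all genes were.

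The change of Cd5 between day 5 and day 12 differed between the progenitors, by 0.72 ± 0.14 (log2, P2 minus P1, adjusted p = 0.011), with a change of 0.33 ± 0.10 in P2 that was not called by itself (adjusted p = 0.0701) and the fall in P1. It was the 1 gene of the 10 called for this difference, where 3.67% of all genes were, and 2 were called without day 5 P1 replicate 3. With the share of counts in genes under 1 CPM as a covariate the difference was 0.52 (adjusted p = 0.0612). For day 49 against day 5, 0 of 10 genes were called by edgeR (0.374% of all genes), 1 was at an unadjusted p under 0.05, and DESeq2 called Egr1 alone.

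DT against PBS, no gene of the 10 was called in any of the 5 tissues by edgeR, where 0% of all genes tested were called in spleen, lung and liver, 0.411% in ear skin and 0.124% in VAT. In spleen 6 of the 10 were at an unadjusted p under 0.05. The share of all genes at that level was not counted, here or for the other unadjusted counts. These counts therefore have no background beside them and are not read as an effect of DT. Egr1 was at 161, 96.4 and 144 CPM in spleen DT, against 56.3, 71.8 and 59.1 CPM in spleen PBS, with no overlap (log2 fold change 1.1 ± 0.24, adjusted p = 0.933). Nr4a3 was at 29.7, 16.4 and 21.1 CPM in spleen DT against 14.7, 11.7 and 14.0 CPM in spleen PBS (0.74 ± 0.32), again with no overlap. With 3 libraries per group, a lack of overlap can also arise by chance. The median change of the 10 genes in spleen was 0.64, against -0.02 over all 12453 genes tested. In lung 2, in liver 1 of the 9 tested, in ear skin 4 and in VAT 2 were at an unadjusted p under 0.05, with medians of 0.23, 0.13, 0.11 and 0.05. DESeq2 called 1 gene, Cd6 in ear skin, and 0 in the other tissues. The difference of the DT effect between each tissue and spleen was called for 0 of the 10 genes by edgeR (0% of all genes for lung and liver, 0.0451% for ear skin and 0.0169% for VAT), with 1, 2, 1 and 3 at an unadjusted p under 0.05 for lung, liver, ear skin and VAT, and DESeq2 called Nr4a2 for ear skin and for VAT. For Nr4a2 these differences were -3.48 ± 0.80 and -3.12 ± 0.77, and they rest on the 6, 11 and 0 Nr4a2 counts of the spleen PBS libraries.

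Other genes of the receptor pathway were read for comparison, and their counts stand beside those over all genes given above. Of 24 genes induced by receptor signalling, 15 rose and 2 fell in VAT PBS, 14 and 4 in ear skin PBS, 15 and 2 in liver PBS and 15 and 3 in lung PBS, with median log2 fold changes of 0.88, 1.31, 1.32 and 1.26, against medians over all genes of -0.06, 0.14, -0.02 and 0.04. Tnfaip3, an inhibitor of NF-kappaB signalling, averaged 1432, 1905, 3132 and 2111 CPM in these tissues against 99.6 CPM in spleen PBS. Icos, a costimulatory receptor, averaged 1449 CPM in ear skin, 2212 CPM in liver and 1645 CPM in lung against 340 CPM in spleen PBS. Both are also induced by other signals.

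Inhibitors of receptor signalling (23 genes, 22 tested) split. In the PBS arm 7 rose and 4 fell in VAT, 3 rose and 4 fell in ear skin, 8 rose and 4 fell in liver and 7 rose and 6 fell in lung. Dusp4 and Dusp5, phosphatases induced by MAP kinase signalling, rose in every tissue, with Dusp4 at 80.7 CPM in VAT, 405 CPM in ear skin, 533 CPM in liver and 288 CPM in lung against 15.5 CPM in spleen PBS. Ptpn6 (SHP-1) was at 190.5 CPM in VAT, 132 CPM in ear skin and 113 CPM in lung against 400 CPM in spleen PBS, and fell there. Of 22 components of the receptor and its proximal signalling, 1 rose and 8 fell in VAT, 3 rose and 11 fell in ear skin, 6 rose and 3 fell in liver and 5 rose and 7 fell in lung. Lck, the kinase that starts the signal, averaged 1125, 668, 1272 and 1046 CPM in VAT, ear skin, liver and lung PBS against 1987 CPM in spleen PBS. Of the other NFAT, calcineurin, TOX and EGR family genes (16, 13 tested) 1 rose in each tissue and 1 fell in ear skin. Among them was Tox2 in VAT at 98.9 against 12.0 CPM in spleen PBS. Tox2 is also in the list of induced genes, so its rise is counted in both lists.

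In the thymus the induced genes fell with Nr4a1 in P2 against P1 cells, with 1 up and 12 down at day 5, 3 up and 10 down at day 12 and 2 up and 8 down at day 49, of 23. Tnfrsf9 (4-1BB) averaged 130 CPM in P2 against 480.1 CPM in P1 at day 5 and 182 against 796 CPM at day 49, and Tnfrsf4 (OX40) 249 against 571 CPM at day 5. Ctla4, a target of Foxp3, was higher in P2 at day 12 (85.3 against 16.9 CPM). The receptor components had 7, 11 and 8 up and 1, 1 and 4 down, and the inhibitors 5, 10 and 5 up and 1, 1 and 6 down, with Dgka, a diacylglycerol kinase that limits the signal, at 2170.3 against 946 CPM at day 5. Between day 5 and day 49 in P2 cells 12 of the 23 induced genes rose and 1 fell, with Pdcd1 at 69.7, 185 and 163 CPM at the 3 ages.

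The genes whose group means were most like each of the 10 were found by Pearson's r over the 16 group means among the 8619 genes that averaged 10 CPM or more. All points share the same libraries, and 8 of the 16 groups are non-lymphoid tissues. Nr4a1 was most like Nr4a3 (r = 0.94), then Plk2 (0.90) and Ankrd50 (0.90). Nr4a3 was most like Nr4a1, Nr4a2 (0.93) and Plk2 (0.93), and Nr4a2 most like Sik1 (0.96), Rgs2 (0.95) and Crem (0.95). The Egr genes had other neighbours. Egr1 was most like Trappc11 (0.93), Ramp1 (0.89) and Vipas39 (0.86), and Egr2 like Zfp426 (0.96), Trbv3 (0.95) and Slc37a1 (0.93), with Egr3 below the level compared. The correlation of Nr4a1 with Egr1 over the groups was 0.04. Cd5 was most like Wbp1l (0.94), Cd6 like R3hdm2 (0.83), Tox like Kansl1 (0.84) and Nfatc1 like Atf7ip (0.89).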

How the data were processed

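RNA-seq was done on sorted Treg cells and Treg progenitors, 50 libraries in 16 groups. Per the submitters' processing notes the tools were STAR 2.7.3a and featureCounts and the build mm10. The annotation, the use of strand and the treatment of multi-mapping reads: not given in the sources used here. The authors deposited raw counts per gene symbol, in 1 table, with totals of 2521078 to 6981037, and counting error is largest for low genes such as Nr4a2 in spleen. Groups came from the labels. No library duplicated another of its own group (chi-square per degree of freedom 3.61 to 66.5 in a check of pairs within groups), and pairs between groups were not checked. The highest value was that of spleen PBS replicates 1 and 3.

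Levels are TMM-scaled CPM. Tests were edgeR 4.0.16 quasi-likelihood tests in R 4.3.3 (limma 3.58.1), two-sided, with filterByExpr (minimum count 10, minimum total 15) and Benjamini-Hochberg adjustment over all genes tested at 0.05. SE is the log2 fold change divided by the root of F. The 18 thymus libraries and the 32 peripheral ones were fitted apart, and DT against PBS within each tissue. The test was checked on simulated counts. Alternatives were RLE size factors, no count filter, DESeq2 1.42.0, the compared groups alone, a replicate block, covariates for heat shock level and for low genes, both doubtful day 49 P2 libraries left out, and each library left out in turn. In none of 19 comparisons did every same-numbered pair of libraries deviate together by the correlation set for pairing, so numbers were not taken as pairs. The genes named are the 10, Foxp3, digestion genes, up to 4 called genes per list and comparison by adjusted p among genes of at least 10 CPM whose groups did not overlap, and the 3 genes most like each of the 10. The 10 genes and all lists were chosen with earlier results of these data known. Positions are from GENCODE M21 and promoter windows from RefSeq, which held no window used here for the other 5 of the 10 genes. 1 gene of the receptor signalling list is not reported here by name.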

Additional observations from a re-analysis of the deposited data

Results flagged for a closer look

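The age effect on Cd5 between day 5 and day 12 differed between the P2 and P1 progenitors by 0.72 on the log2 scale (edgeR, adjusted p = 0.011), which put it here as a difference between groups under the same contrast. Cd5 averaged 1286 CPM at day 12 and 995 CPM at day 5 in P2 cells, and 736 CPM at day 12 and 1054 CPM at day 5 in P1 cells. The T cell marker sum was 4605 to 5567 CPM in day 12 P1 against 5839 to 6169 CPM in day 5 P1 libraries, and the B cell sum 14.8 to 22.8 CPM against 5.69 to 7.72 CPM. The part of these in the result was not tested. The day 12 P1 libraries also held the high shares of counts in genes under 1 CPM, and with that share as a covariate the difference was 0.52 (adjusted p = 0.0612). Since all libraries of that group were high, this covariate does not separate the group from its libraries.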

How the results depend on the processing

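All 10 genes together gave 86 calls, of which 52 were kept without every library in turn. DESeq2 kept 82, RLE scaling 81, no count filter 71 and the compared groups alone 66 of the 86. The heat shock covariate kept 37 of 50 calls, the low-gene covariate 19 of 36, and leaving out both day 49 P2 libraries 6 of 14. No direction turned. The causes of the changes below were not tested. Levels under plain CPM were 0.880 to 1.17 times and under RLE 0.911 to 1.18 times those under TMM. Low counts limit Nr4a2 in spleen and Egr3 in most groups.

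Day 12 against day 5 in P1 cells gave 3 calls, 5 with RLE and with DESeq2, 6 with the groups alone and 1 with the low-gene covariate, and 2 to 3 without 1 library. Day 49 against day 12 in P1 cells gave 3, 0 with the low-gene covariate and 2 to 2 without 1 library. Day 49 against day 5 in P1 cells gave 2, 4 with DESeq2, 5 with the groups alone and 1 to 2 without 1 library. In P2 cells, day 12 against day 5 gave 6, and 3 to 6 without 1 library. Day 49 against day 12 gave 3, 0 with the groups alone and with the low-gene covariate, and 2 to 3 without 1 library. Day 49 against day 5 gave 5, 2 without the filter, 3 with the groups alone, 1 with the low-gene covariate, 3 without both day 49 P2 libraries and 3 to 8 without 1 library. P2 against P1 gave 3 at day 5 (2 to 3 without 1 library) and 4 at day 12 (4 to 4). At day 49 it gave 6, 3 without the filter, 1 with the groups alone, 2 with the low-gene covariate, 2 without both libraries and 1 to 7 without 1 library. The day 12 difference between progenitors gave 1, 2 with RLE, 3 with DESeq2 and with the groups alone, 0 with the low-gene covariate and 1 to 2 without 1 library, and the day 49 difference 0, 1 with DESeq2 and 0 to 1.

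Against spleen in the PBS arm, lung gave 5 (3 with the groups alone, 4 to 5 without 1 library), liver 7 (3 with the groups alone and with the heat shock covariate, 4 to 5), ear skin 6 (4 to 6) and VAT 4 (4 to 4). In the DT arm lung gave 6 (4 to 5), liver 5 (3 with the heat shock covariate, 4 to 6), ear skin 7 (4 to 6) and VAT 4 (3 to 4). VAT against ear skin gave 3 in each arm (1 to 3 in each). DT against PBS gave 0 in each tissue, 1 with DESeq2 in ear skin. Its difference from spleen gave 0, and without the filter 1 for lung, 1 for liver, 1 for ear skin and 3 for VAT, with DESeq2 1 for ear skin and 1 for VAT.

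The replicate block kept 62 of 85 calls. With it day 12 against day 5 in P1 cells gave 5, day 49 against day 5 in P1 cells 5, day 49 against day 12 and against day 5 in P2 cells 0 and 0, P2 against P1 at day 49 1, lung against spleen PBS 3 and VAT against ear skin DT 1. Same-numbered libraries had correlations of -0.175 to 0.194, so the pairing rests on a number alone. In liver against spleen DT all same-numbered pairs were above the others (0.0643 to 0.0914 against -0.1001 to 0.0117), a hint from the data and not the design. No paired analysis of DT against PBS was possible because the DT and PBS groups share no replicate numbers.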
